A study of Mus musculus with 26 samples.

Results

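The cytosolic ribosomal protein genes encode the protein parts of the ribosome that translates messenger RNA outside the mitochondria. Genes were taken by name, as those called Rpl or Rps with a number (with a, x or l after it in some), Rplp0, Rplp1, Rplp2 or Rpsa, and listed as protein-coding. The rule found 80 genes among the 25814 in each table. By name, 46 belong to the large subunit, 31 to the small subunit and 3 to the P stalk of the large subunit.

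RNA was sequenced from T cells sorted from Peyer's patches, the lymphoid follicles of the small intestine, of C57Bl/6 mice. Elemental diet CD4+ libraries (n = 6) came from CD4+ T cells of mice fed a diet in which free amino acids stand in for protein. Conventional diet CD4+ libraries (n = 6) came from CD4+ T cells of mice on the conventional diet. CD44+ libraries (n = 7) and CD44- libraries (n = 7) came from T cells sorted by the adhesion receptor CD44, also from mice on the conventional diet. CD4+ libraries were made from 22 ng of total RNA after poly(A) selection, and the CD44 libraries from 1 ng by a kit meant for low input. The cells and the kit therefore cannot be told apart between the 2 pairs, and each comparison was made within its own pair. Nothing in the labels states a CD4 gate for the CD44 sort, or that each replicate is its own mouse, so p-values measure the spread between these libraries, which may be technical.

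Ribosomal proteins are made in matched amounts and assembled with ribosomal RNA into a small subunit, which reads the message, and a large subunit, which joins amino acids. Their messages begin with a run of pyrimidines, the 5′ terminal oligopyrimidine or TOP tract, through which growth signals via mTOR set their translation. T cells enlarge their ribosome pool when antigen activates them. The messages are short, abundant and long-lived.

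Promoter sequences from RefSeq (GRCm38.p6) were at hand for 60 of the 80 genes. A TOP-like tract, defined as a C followed by at least 5 bases that are C or T on the gene's strand, lay within 20 bases of an annotated start in 40 of these 60 genes (66.7%), against 32.8% of all 27025 genes. The ETS-type motif CCGGAA, searched on both strands from 250 bases before to 50 after the start, was found in 33 of the 60 genes (55.0%) and in 16.7% of all genes. CACGTG, the E-box bound by Myc among other factors, was found in 6 of the 60 genes and in 8.09% of all genes, both strands searched. TATAAA on the gene's strand was found in 8.33% and 9.77%. Matches are letters in a window and not shown to be bound. Below are 120 bases, 100 before and 20 after the annotated start, for Rpl4 and Rpl5, which fell in CD44+ cells, for Rps6 and Rps18, where the tract runs across the annotated start, for Rpl38, where it begins there, and for Rps27l, which had the highest log2 fold change among the 77 members tested in the sort. Capitals mark TOP-like tracts and CCGGAA or its reverse complement. The stretches are chr9:64173287-64173406 (plus strand) for Rpl4, chr5:107900428-107900547 (plus) for Rpl5, chr4:86857348-86857467 (minus) for Rps6, chr17:33955646-33955765 (minus) for Rps18, chr11:114668480-114668599 (plus) for Rpl38 and chr9:66945986-66946105 (plus) for Rps27l.
Rpl4: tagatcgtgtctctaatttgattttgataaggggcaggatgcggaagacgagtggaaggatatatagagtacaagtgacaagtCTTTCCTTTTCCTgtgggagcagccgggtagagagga
Rpl5: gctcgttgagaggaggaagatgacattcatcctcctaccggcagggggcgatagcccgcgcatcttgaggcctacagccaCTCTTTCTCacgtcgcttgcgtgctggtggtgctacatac
Rps6: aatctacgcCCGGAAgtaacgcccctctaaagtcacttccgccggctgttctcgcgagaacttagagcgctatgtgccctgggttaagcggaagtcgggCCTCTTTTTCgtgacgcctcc
Rps18: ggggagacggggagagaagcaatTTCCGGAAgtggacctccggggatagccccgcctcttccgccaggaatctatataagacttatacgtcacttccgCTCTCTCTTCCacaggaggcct
Rpl38: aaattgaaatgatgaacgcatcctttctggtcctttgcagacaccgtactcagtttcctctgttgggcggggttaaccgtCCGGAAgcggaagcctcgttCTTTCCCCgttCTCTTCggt
Rps27l: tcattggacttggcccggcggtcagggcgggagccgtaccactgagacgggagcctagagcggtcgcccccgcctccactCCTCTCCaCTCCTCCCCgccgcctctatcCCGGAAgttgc
The longest tract in each was 13 bases in Rpl4, 9 in Rpl5, 10 in Rps6, 11 in Rps18, 8 in Rpl38 and 9 in Rps27l. In Rpl4, Rpl5 and Rps27l the marked tracts lie wholly before the annotated start, so outside the message as annotated. The counts of genes with a TOP-like tract take in such cases. Neither of the printed stretches of Rpl4 and Rpl5 held CCGGAA on either strand.

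Exon reads per library ran from 17331588 to 22430541 on the elemental diet and from 16401589 to 25415205 on the conventional diet. They ran from 7180390 to 9991782 in CD44+ libraries and from 7933600 to 13378353 in CD44- libraries. Introns took 3.33% to 4.61% of gene reads over both diets and 9.39% to 29.0% over both sorts, but at most 0.234% of the reads of the 80 genes in any library. A few libraries stood apart. Conventional replicate 6 had the highest share of reads in the 80 genes among conventional libraries. CD44- replicate 2 was the deepest CD44 library, with the lowest intron share (9.39%). CD44- replicate 6 had the highest share of reads in the 80 genes of its group. CD44+ replicate 1 was the shallowest and had the highest intron share. The transcript of Cd44 itself, which the sort selected as protein, ran from 89.2 to 362.0 CPM (reads scaled to a common library total) in CD44+ libraries and from 47.5 to 139 CPM in CD44- libraries, and the groups overlapped (log2 fold change 0.95 ± 0.40, adjusted p = 0.30, edgeR). Of the T cell receptor genes, Trac and Trbc2 have a deposited exon length of 0 and are listed with 0 exon reads, though the tables give them reads over the whole gene.

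The 80 genes took a large and variable part of every library. On the elemental diet the share of exon reads in the 80 genes was 29.6% at the lowest, 32.5% at the median and 36.0% at the highest library, and on the conventional diet 25.7%, 28.9% and 33.3%. In CD44+ libraries it was 20.2%, 21.7% and 23.8%, and in CD44- libraries 15.3%, 23.2% and 30.7%. Both pairs overlapped. The SD over libraries was 1.15 percentage points in CD44+ and 5.19 in CD44- cells. A lower share can come from fewer cells of a type or from less of this RNA per cell, which bulk libraries cannot tell apart.

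**Figure D1:**
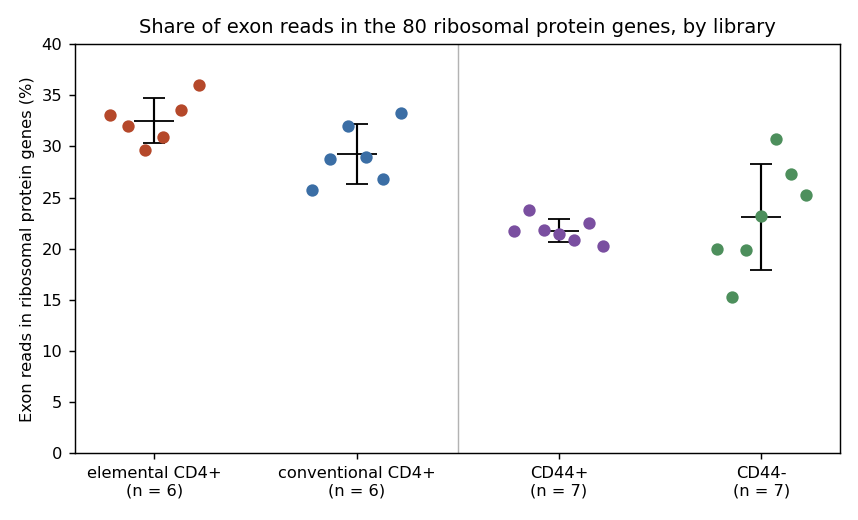
Share of exon reads that fell in the 80 cytosolic ribosomal protein genes (vertical axis, percent) in each library, with elemental and conventional CD4+ libraries on the left of the line and CD44+ and CD44- libraries on the right; points are libraries, horizontal marks and bars are the mean and SD. The diet groups overlap, and the CD44- libraries span 15.3% to 30.7% around the narrow CD44+ range.

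The genes were not equally measured. Counted as CPM per kilobase of deposited exon length, the highest in the CD4+ libraries were Rplp1, a P stalk protein that helps recruit elongation factors (18778 CPM per kb), Rps18 (9532 CPM per kb), Rps27 (8978 CPM per kb) and Rps14 (8893 CPM per kb). In the CD44 libraries, where Rps12 (96.0 CPM per kb), Rpl29 (187 CPM per kb), Rplp2 (235 CPM per kb) and Rpl18 (237 CPM per kb) were the lowest tested, the highest were Rps18 (15114 CPM per kb), Rps14 (13697 CPM per kb), Rpl32 (13441 CPM per kb) and Rps27 (7796 CPM per kb). Rps14, Rps18 and Rps27 were among the 4 highest in both pairs.

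The low end held copies known from other tissues. Rpl10l, a retrocopy of Rpl10 used in the male germ line, had no read in any library. Rpl3l, the striated muscle copy of Rpl3, had at most 6 reads in a CD4+ library and 13 in a CD44 library. Neither was tested. Rpl39l, the copy of Rpl39 known from testis, stood at 2.35 CPM per kb in CD4+ libraries, against 5446 CPM per kb for Rpl39. It failed the filter on low counts in the CD44 pair. Rps27l, a copy of Rps27 induced by p53, stood at 150.2 CPM per kb in CD4+ and 865 CPM per kb in CD44 libraries.

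Rps12, Rpl27, Rps27 and Rpl10 have near-identical copies in the tables. Rps12 ran from 59.9 to 91.6 CPM on the elemental diet and from 37.2 to 87.2 CPM on the conventional diet. Rps12-ps3, a copy that the tables list apart, ran from 4410 to 7145 CPM on the elemental and from 3247 to 6556 CPM on the conventional diet, yet it had 0 reads that mapped to one place only. The member thus held 1.2% of the summed reads of the pair on the elemental diet and 1.3% on the conventional diet. Rpl27 held 3.3% of the reads that it and Rpl27-ps3 drew on the elemental diet and 3.4% on the conventional diet. Rps27 held 97.1% of its reads summed with those of Rps27rt on the elemental diet and 97.3% on the conventional diet, but 37.3% in CD44+ and 37.8% in CD44- libraries. Rpl10 held 64.4% of its reads summed with those of Rpl10-ps3 on the elemental diet, 66.1% on the conventional diet, 35.5% in CD44+ and 34.5% in CD44- cells. The levels of these genes are therefore uncertain. Over all libraries, reads that mapped to one place made up 99.98% of the reads of Rps14 and 99.9% of those of Rpl22, but 0.137% of those of Rps27 and 0.88% of those of Rpl10.

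The question of the first comparison was what the elemental diet changes in Peyer's patch CD4+ T cells. Of the 80 genes, 78 passed the filter. With edgeR's quasi-likelihood test and adjustment over all 11938 genes tested, 0 members were called higher and 0 lower at an adjusted p under 0.05, and 0 separated the groups without overlap in either direction, while 17.4% of all genes tested were called, 9.68% higher and 7.75% lower (4.82% were higher and 2.35% lower without overlap). Of the 78 log2 fold changes, from genes that share the same 12 libraries, 77 lay above 0, against 48.7% of all genes tested. Scaled to plain library size 72 did, and with scaling factors (TMM) worked out without the members 77 did. Scaled to the summed reads of the members 33 did, but that scaling centres the members near 0 by construction. In the main fit the members' median was 0.25, beside -0.01 for all genes tested. The median standard error was 0.14, and the lowest adjusted p among members was 0.083. At an unadjusted p under 0.05 there were 17 of 78 members, beside 4034 of all 11938 genes tested. DESeq2 called 0, and limma-voom with quality weights called 51, all higher, where it called 17.2% of all genes higher.

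Rps14, a small subunit protein at the platform, ran from 8682 through 10165 to 13850 CPM (lowest, median and highest) on the elemental diet and from 5847 through 7533 to 11729 CPM on the conventional diet. The groups overlapped, and the log2 fold change was 0.40 ± 0.16 (SE, adjusted p = 0.099). Rps3, which guards the channel where the message enters, ran from 7087 through 8782 to 10784 CPM on the elemental diet and from 5334 through 6422 to 9364 CPM on the conventional diet. Its log2 fold change was 0.35 ± 0.14 (adjusted p = 0.090). Rps19, the gene most often mutated in Diamond-Blackfan anaemia in humans, had a log2 fold change of 0.34 ± 0.15 (adjusted p = 0.12) and Rps18 one of 0.36 ± 0.15 (adjusted p = 0.12). Rps6, whose protein is phosphorylated downstream of mTOR, ran from 4123 through 5002 to 5460 CPM on the elemental and from 3535 through 4134 to 5167 CPM on the conventional diet. That is a log2 fold change of 0.20 ± 0.11 (adjusted p = 0.20).

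Among large subunit proteins, Rpl3, next to the peptidyl transferase centre, ran from 4297 through 4819 to 5351 CPM on the elemental and from 3346 through 3961 to 4939 CPM on the conventional diet, a log2 fold change of 0.25 ± 0.10 (adjusted p = 0.10). Rpl5 and Rpl11, which bind 5S ribosomal RNA and, when free, hold back Mdm2, had log2 fold changes of 0.18 ± 0.11 (adjusted p = 0.25) and 0.23 ± 0.13 (adjusted p = 0.23). Rpl10, Rpl13a, Rpl22, Rpl38 and Rpl39 lay between 0.24 and 0.28 on the log2 scale. Rplp0, Rplp1 and Rplp2 of the P stalk were at 0.15, 0.23 and 0.32, and Rpsa and Rps4x of the small subunit at 0.09 and 0.18. The lowest value was that of Rpl4, an early-assembling protein that lines the exit tunnel. It ran from 1359 through 1566 to 2043 CPM on the elemental and from 1516 through 1770 to 1894 CPM on the conventional diet, a log2 fold change of -0.11 ± 0.10 (adjusted p = 0.48). The highest was that of Rpl39l, 0.85 ± 0.41 (adjusted p = 0.15), at only 33 to 67 reads per library on the elemental diet and 9 to 52 on the conventional diet. By subunit the medians were 0.24 for the large subunit, 0.27 for the small subunit and 0.23 for the P stalk.

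**Figure D2:**
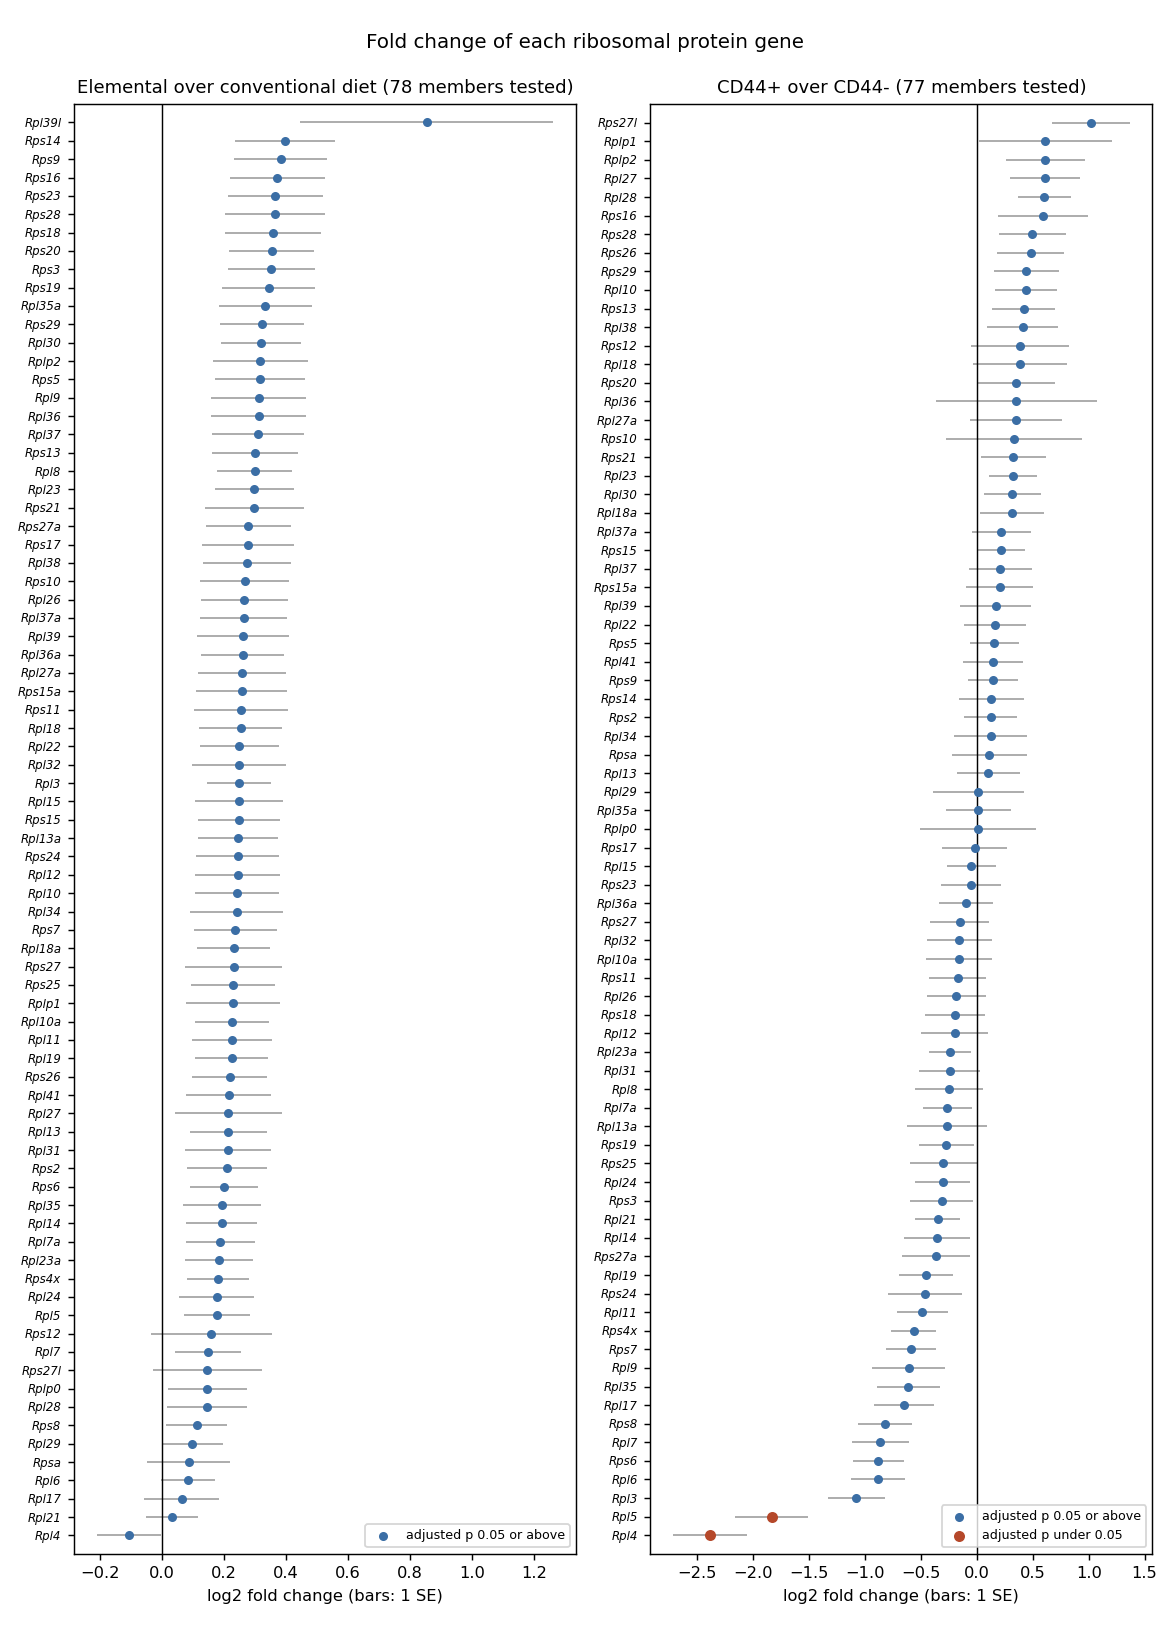
Log2 fold change of each member tested (horizontal axis, bars are 1 SE), ordered by size, for elemental over conventional CD4+ cells (left, 78 genes) and CD44+ over CD44- cells (right, 77 genes). On the left 77 of 78 points lie above 0 and 0 are called. Scaled to the summed reads of the members, which centres them near 0 by construction, 33 lie above 0. On the right the 2 called genes, Rpl4 and Rpl5, lie lowest.

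The count of 0 held neither under limma-voom nor under some other scalings, nor without conventional replicate 6. Without that library 59 members were called higher, where 16.2% of all genes tested were, and the median log2 fold change was 0.35. All 51 members that limma-voom called were among these 59. Leaving out each other library in turn called 0 members higher, and leaving out conventional replicate 6 together with elemental replicate 1, a pair known from earlier work on these data, called 36, where 14.0% of all genes tested were. The share of reads in the 80 genes was 33.3% in that library, against 25.7% to 31.9% in the other conventional libraries, and its summed epithelial markers stood at 1198 CPM, against 89.3 to 639 CPM in the others. Plain library size called 8 higher, where 7.52% of all genes tested were. Scaling to the summed reads of the members, which by construction centres the members near 0, moved their median to -0.01 and that of all genes to -0.29. On that scale, where 5.33% of all genes tested were called higher and 12.2% lower, 6 members were called higher, all small subunit genes (Rps3, Rps9, Rps14, Rps16, Rps20 and Rps23, log2 fold changes from 0.10 to 0.16), and Rpsa (-0.17), Rplp0 (-0.11) and Rpl17 (-0.20) were called lower.

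The members moved together from library to library within a diet. After removing group means, one axis held 91.7% of the variance of log2 CPM of the 78 genes over 12 libraries, and 77 of the 78 had the same sign on it. Rpl4 was the exception. On that axis conventional replicate 6 was highest and conventional replicate 1 lowest. Elemental replicate 6 was the highest and elemental replicate 3 the lowest of the elemental libraries. The within-group SD of a member was 0.11 to 0.40 on the log2 scale, and it was smaller in genes with a longer coding sequence (Spearman's rho -0.65 over 78 genes, which share the same libraries). In the CD44 pair the members moved together less. The first axis there held 53.8% of the variance and the second 24.2%, and 54 of 77 members had the same sign on the first.

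Markers of other cells also differed between the diets. Of 12 myeloid and dendritic markers 11 were called higher on the elemental diet and 0 lower, with a summed level of 910.4 to 1782 CPM on the elemental and 449 to 609 CPM on the conventional diet. Of 12 enterocyte and epithelial markers 7 were called higher and 0 lower (1066 to 2151 CPM on the elemental and 89.3 to 1198 CPM on the conventional diet). Of the 10 alpha-beta T cell markers tested 5 were called lower, as were 3 of 10 B cell and 3 of 7 plasma cell markers, with 0 higher, and of the 15 dividing cell markers tested 14 were called lower and 0 higher. Of 12 markers of antigen-experienced T cells 9 were called lower and 0 higher, among them Cd44. Of 7 naive T cell markers 4 were called higher and 1 lower, and of 4 erythroid markers 0 were called. Their part in the values of the ribosomal protein genes was not tested.

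**Figure D3:**
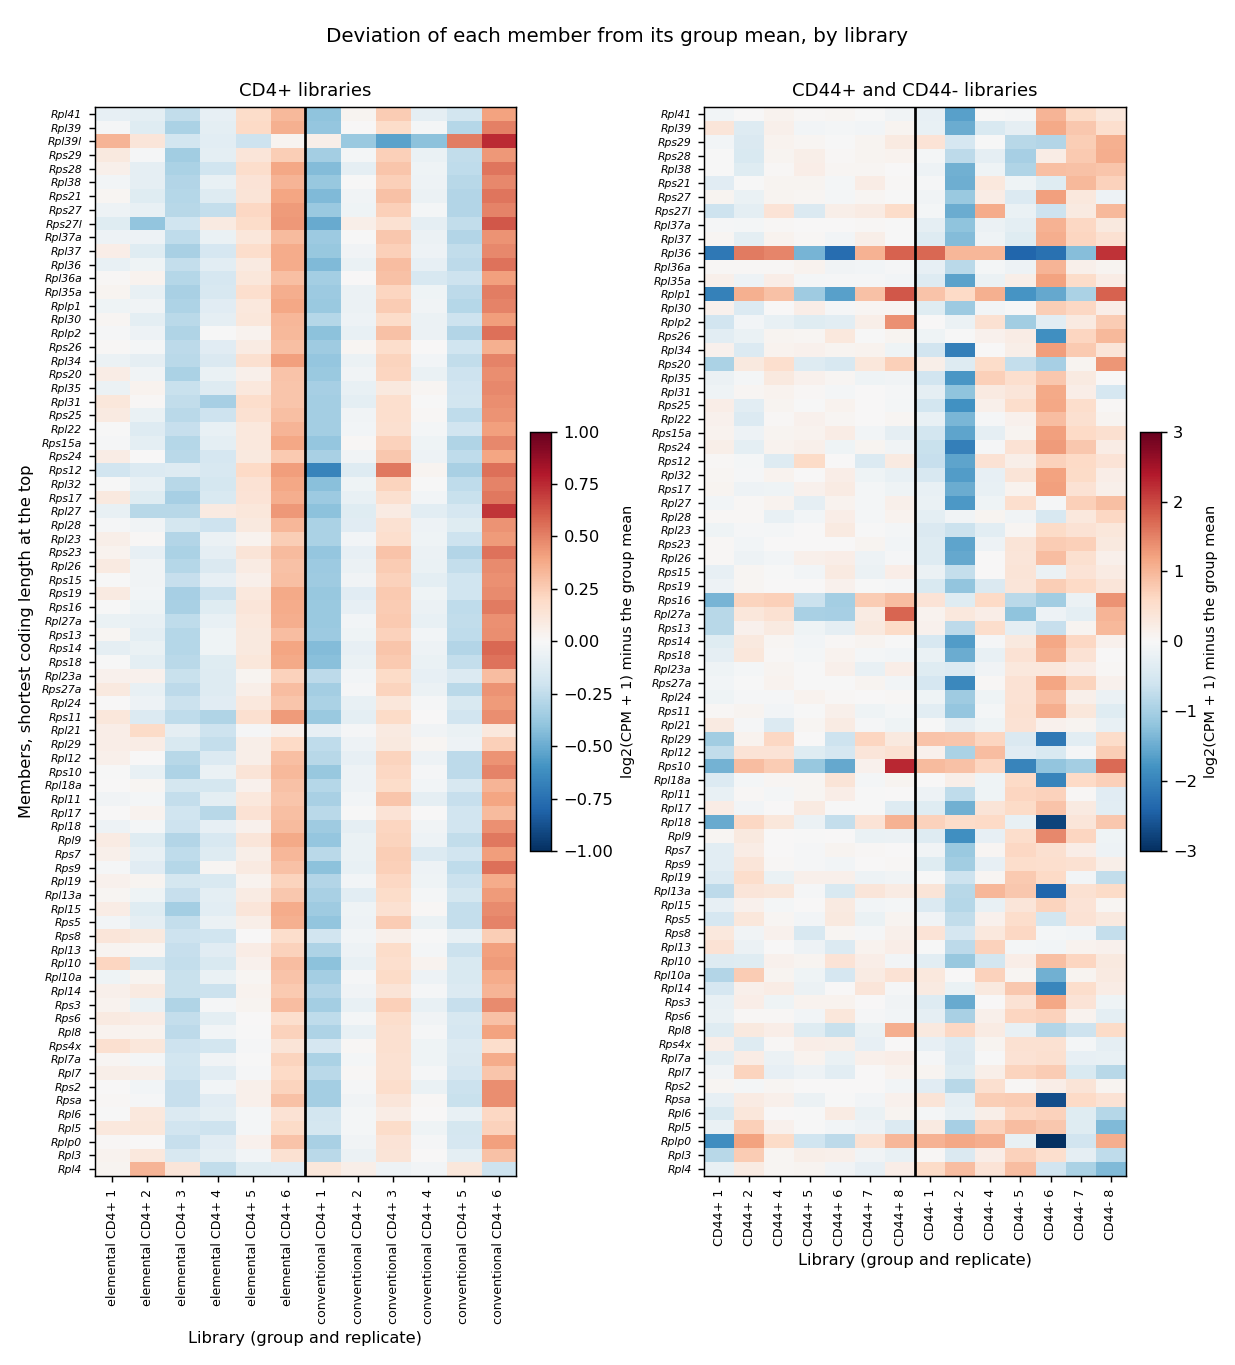
Log2(CPM + 1) of each member tested minus its group mean (colour) in each library (columns, with elemental left of conventional and CD44+ left of CD44-), with members ordered by coding length from shortest at the top. In the CD4+ libraries whole columns shift together, most in conventional replicate 6, while in the CD44 libraries the CD44- columns vary more than the CD44+ ones and Rpl36, Rplp0, Rplp1 and Rps10 vary in both.

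The second comparison sets CD44+ against CD44- T cells, CD44 protein being the usual mark of antigen experience. Here 77 members passed the filter. The test called 0 members higher and 2 lower among 8343 genes tested, of which 0.767% were called, 0.3% higher and 0.467% lower. The 2 were Rpl4 and Rpl5, both large subunit genes. Median log2 fold changes were -0.16 over the 43 large subunit genes tested, 0.13 over the 31 of the small subunit and 0.61 over the 3 of the P stalk. In all, 39 members had a log2 fold change above 0 and 38 below it, and 51.1% of all genes tested lay above 0. Their median was 0.01, beside 0.03 for all genes tested. The standard errors of members (0.19 to 0.72) were larger than in the diet comparison (0.08 to 0.41). At an unadjusted p under 0.05 there were 14 of 77 members, beside 1114 of all 8343 genes tested.

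Rpl4 ran from 392 through 479 to 545 CPM in CD44+ libraries and from 834 through 2751 to 3969 CPM in CD44- libraries. Every CD44+ library lay below every CD44- library, and no other member separated the groups (0.36% of all genes tested were lower and 0.396% higher without overlap). Within the CD44- group replicates 1, 2, 4 and 5 were high and replicates 6, 7 and 8 lower. The log2 fold change was -2.39 ± 0.33 (adjusted p = 0.0034), and nearly all reads of Rpl4 mapped to one place. Rpl5 ran from 987 through 1237 to 2138 CPM in CD44+ libraries and from 1664 through 4999 to 7835 CPM in CD44- libraries. CD44+ replicate 2 lay above CD44- replicates 2 and 8, and the other 6 CD44+ libraries lay below all CD44- libraries. Its log2 fold change was -1.84 ± 0.33 (adjusted p = 0.0091). On single-place reads alone the log2 fold changes were -2.33 ± 0.32 for Rpl4 (adjusted p = 0.0045) and -1.81 ± 0.33 for Rpl5 (adjusted p = 0.012). Both genes were called lower in each of the 24 alternatives, with adjusted p up to 0.012 for Rpl4 and 0.039 for Rpl5.

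**Figure D4:**
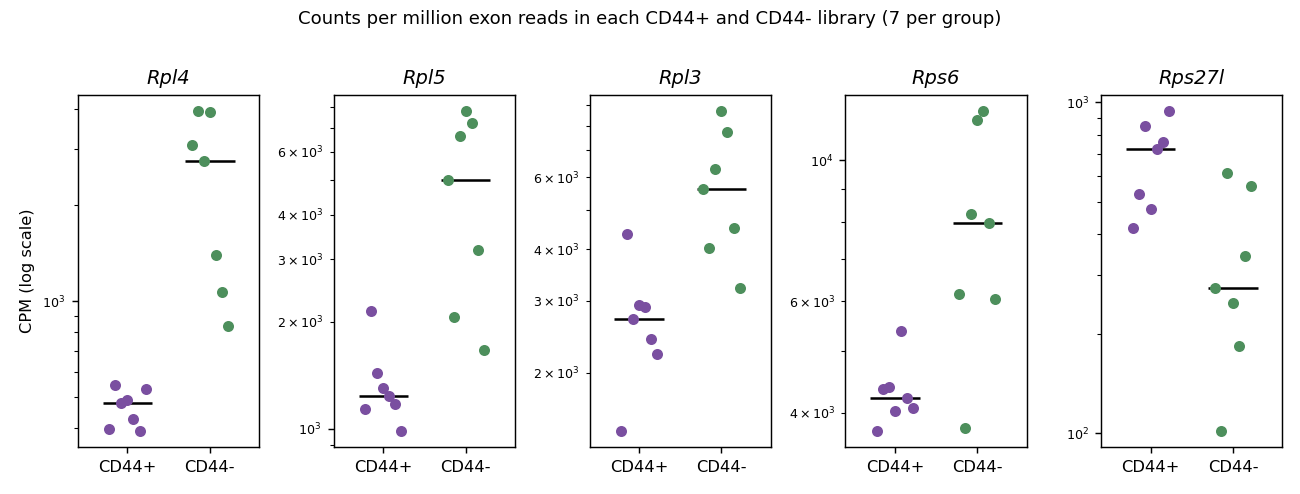
CPM (vertical axes, log scale) of Rpl4, Rpl5, Rpl3, Rps6 and Rps27l in the 7 CD44+ and 7 CD44- libraries, with points for libraries and lines for group medians. Rpl4 separates the groups (392 to 545 CPM in CD44+ against 834 to 3969 CPM in CD44-), while the other genes overlap.

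Further large genes lay next in order but were not called. Rpl3 ran from 1443 through 2705 to 4368 CPM in CD44+ libraries and from 3226 through 5599 to 8723 CPM in CD44- libraries. The groups overlapped, with a log2 fold change of -1.08 ± 0.26 (adjusted p = 0.054). It was called in 9 of the alternatives. Rps6 ran from 3748 through 4221 to 5392 CPM in CD44+ libraries and from 3789 through 7961 to 11976 CPM in CD44- libraries. CD44- replicate 2 lay among the CD44+ libraries and the other 6 above them all. The log2 fold change was -0.88 ± 0.23 (adjusted p = 0.078), and without CD44- replicate 2 it was -1.02 ± 0.17 (adjusted p = 0.0087). Without that library 5 members were called lower (Rpl4, Rpl5, Rpl3, Rps6 and Rps7), where 0.436% of all genes tested were. Plain library size also called 5 lower, where 0.551% of all genes tested were. These were Rpl4, Rpl5, Rpl3, Rps6 and Rpl6, and Rps7 was not called there.

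At the other end stood Rps27l, with 417 through 723 to 945 CPM in CD44+ libraries and 101 through 274 to 612 CPM in CD44- libraries. The groups overlapped, and the log2 fold change of 1.02 ± 0.35 missed the threshold (adjusted p = 0.19). Rps27 itself had a log2 fold change of -0.15 ± 0.26 (adjusted p = 0.86). Rps14, Rps19, Rps3 and Rps4x were at 0.13 ± 0.29, -0.27 ± 0.24, -0.32 ± 0.28 and -0.56 ± 0.20, and Rpl10, Rpl11, Rpl13a, Rpl22, Rpl38 and Rpl39 between -0.49 and 0.44. None of these was called (adjusted p of at least 0.21).

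In the sort the log2 fold change of a member was lower where its protein is longer. The 26 members with the longest coding sequence (564 to 1257 bases) had a median log2 fold change of -0.29 and lay below 0 in 18 of 26 cases. The 26 in the middle had a median of -0.04, and the 25 shortest (75 to 390 bases) one of 0.21, with 19 of 25 above 0. Spearman's rho between log2 fold change and coding length was -0.58 over the 77 members and -0.19 over 8318 genes with a coding length. In the diet comparison it was -0.41 over 78 members and -0.38 over 11885 genes. These are descriptions across genes that share libraries, and coding length is that of a single annotated transcript per gene. Over all alternatives the rho of the members ran from -0.68 to -0.43 for CD44+ over CD44- and from -0.54 to -0.29 for the diets.

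**Figure D5:**
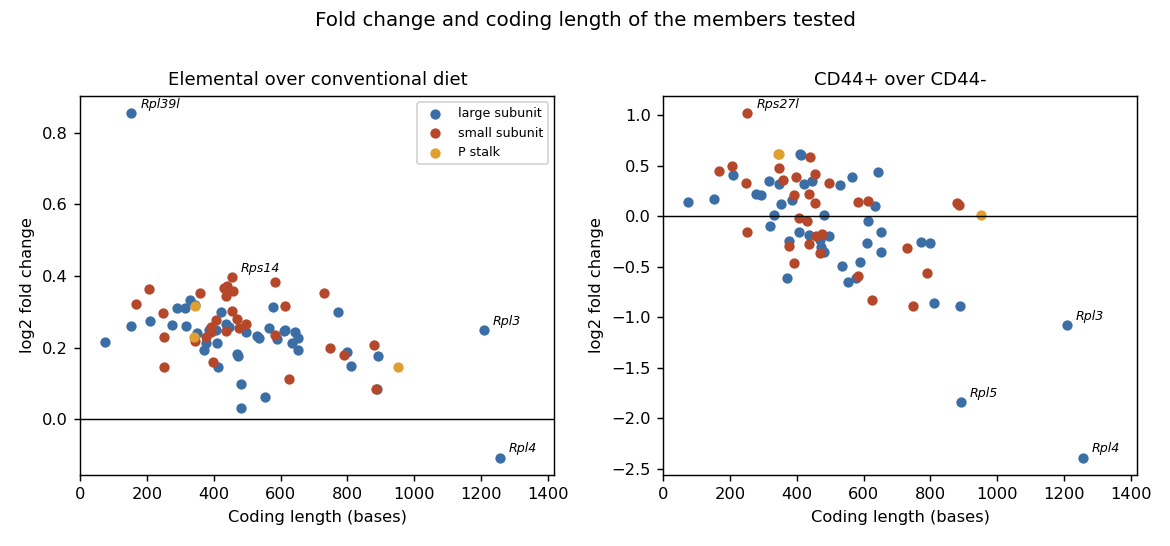
Log2 fold change of each member tested against the coding length of its transcript (bases), for elemental over conventional diet (left) and CD44+ over CD44- (right), coloured by subunit. On the right the longest genes, Rpl4 and Rpl3, and Rpl5 lie lowest, and the rho is -0.58, while on the left the values run from -0.11 to 0.85 and the rho is -0.41.

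The CD44- libraries differed more among themselves than the CD44+ libraries did. The highest library exceeded the lowest by a median over the 77 members of 1.49-fold in CD44+ and 4.91-fold in CD44- cells (1 read was added to each count). All genes tested had medians of 14.5-fold in CD44+ and 16.9-fold in CD44- cells. In CD44+ cells 18 of 77 members (23.4%) varied by more than 2-fold and in CD44- cells 73 (94.8%), beside 95.5% of all genes tested in CD44+ and 99.1% in CD44- cells. Without replicates 2 and 6 in either group the members' medians were 1.34-fold in CD44+ and 2.08-fold in CD44- libraries, with 17 members over 2-fold in CD44+ and 42 in CD44- cells. Without replicate 2 alone 67 were over 2-fold in CD44- cells, without replicate 6 alone 69 were, and the difference between the groups was not tested.

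A few members varied by more than 10-fold inside a group while the rest did not. In CD44+ cells these were Rpl36, Rplp1 and Rps10. In CD44- cells they were Rpl13a, Rpl18, Rpl36, Rplp0, Rplp1, Rps10, Rps24 and Rpsa. Without CD44- replicate 6 the 8 members became 3, which were Rpl36, Rplp1 and Rps10. Rpl36, a large subunit protein, had 71.9, 121 and 65.0 CPM in CD44+ replicates 1, 5 and 6, and from 662 to 1097 CPM in the other 4 CD44+ libraries. In CD44- replicates 5, 6 and 7 it had 45.2, 49.97 and 98.9 CPM, and from 481 to 1073 CPM in the other 4. Rps10, a small subunit protein near the message's entry, was likewise at 79.9, 97.3 and 72.9 CPM in those 3 CD44+ libraries and at 46.1, 80.8 and 90.6 CPM in those 3 CD44- libraries, with 233 to 1030 CPM in the other CD44+ and 292 to 603 CPM in the other CD44- libraries. Rplp1 followed the same division, with 308 to 604 CPM in the low CD44+ libraries against 2316 to 4605 CPM in the rest, and 252 to 446 CPM in the low CD44- libraries against 1321 to 2963 CPM in the rest. The division was not confined to these genes. After removing group means, the first axis over all 77 members held 53.8% of the variance. Scores on it were above 0 in those 3 CD44+ libraries (1.98 to 3.63) and those 3 CD44- libraries (2.89 to 9.34), and below 0 in all others. Rplp0 also divided this way, with 8887 to 21257 reads in the low CD44+ libraries against 45019 to 88524 in the rest. In CD44- libraries it had 2120 to 25256 reads against 52867 to 129672. The labels give no batch for these libraries. The division cut across the sort, and log2 fold changes were 0.35 ± 0.72 for Rpl36, 0.33 ± 0.61 for Rps10 and 0.61 ± 0.59 for Rplp1. Rplp0 ran from 1052 through 5241 to 8758 CPM in CD44+ libraries and from 268 through 6686 to 7219 CPM in CD44- libraries, with replicate 6 the lowest CD44- library. These genes were singled out after their values were seen.

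Plasma cell and naive T cell markers moved with the sort. Of the 5 plasma cell markers tested of 7, Jchain and Mzb1 were called higher and 0 lower, with a summed level of 3841 to 8087 CPM in CD44+ libraries and 399 to 3136 CPM in CD44- libraries. Of 7 naive T cell markers 4 were called lower and 0 higher (332 to 950.4 CPM in CD44+ and 1278 to 4781 CPM in CD44- libraries). Of 8 B cell markers tested 0 were called, at 591 to 1981 CPM in CD44+ and 238 to 1361 CPM in CD44- libraries. Among markers of alpha-beta T cells, myeloid, epithelial, erythroid, antigen-experienced and dividing cells 0 were called. Their part in the values of Rpl4 and Rpl5 was not tested.

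Genes that work beside the ribosomal proteins were read from lists drawn up for this purpose. Of 6 ribosomal protein genes that the name rule missed, among them Fau and Rack1, 0 were called in either comparison, with medians of 0.24 for the diet and 0.05 for the sort. Other messages with a TOP tract come mainly from translation factors. In CD44+ cells 3 of 17 were called lower and 0 higher, and 2 of 17 had a log2 fold change above 0 (median -0.62), where 0.467% of all genes tested were called lower and 51.1% lay above 0. Eef1a1, which brings aminoacyl-tRNA to the ribosome, ran from 2017 through 2348 to 3186 CPM in CD44+ libraries and from 3194 through 10597 to 16075 CPM in CD44- libraries. The groups did not overlap (log2 fold change -1.92 ± 0.29, adjusted p = 0.0034). Npm1, a nucleolar chaperone of ribosome assembly, had a log2 fold change of -1.77 ± 0.32 (adjusted p = 0.011), and Eif3e, an initiation factor subunit, one of -1.72 ± 0.28 (adjusted p = 0.0052). On the elemental diet Eef1d was called higher (log2 fold change 0.37 ± 0.12, adjusted p = 0.041), and Nap1l1 (-0.34 ± 0.08, adjusted p = 0.0102), Pabpc1 (-0.60 ± 0.18, adjusted p = 0.038) and Eif4b (-0.53 ± 0.17, adjusted p = 0.048) lower. These were 1 of 17 called higher and 3 lower, where 9.68% of all genes tested were called higher and 7.75% lower. The median of the 17 was 0.06.

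Lists of the machinery that makes ribosomes and of its regulators are read against the same shares of all genes tested, 9.68% higher and 7.75% lower for the diets and 0.3% higher and 0.467% lower for the sort. Of 61 rRNA processing and assembly genes on the elemental diet 2 were called lower, Ddx21 and Efl1, and 0 higher, with 19 of 61 above 0 (median -0.11). In CD44+ cells 1 of 58 was called lower, the large subunit assembly factor Pes1 (log2 fold change -4.14 ± 0.86, adjusted p = 0.028), and 0 higher, with 15 of 58 above 0 (median -0.82). Of 15 RNA polymerase I genes Polr1a was called lower on the elemental diet (-0.84 ± 0.25, adjusted p = 0.032), and 0 of 14 in the sort. Of 12 chaperones and importers of ribosomal proteins Nap1l1 alone was called on the elemental diet, and 0 in the sort. Of 20 growth signal genes Sesn1, an inhibitor of mTOR that p53 induces, was called higher on the elemental diet (0.49 ± 0.08, adjusted p = 0.0013) and Tsc1, another inhibitor of mTOR, lower (-0.89 ± 0.29, adjusted p = 0.045). In the sort 0 of 18 were called. Of the 10 p53 genes set beside free Rpl5 and Rpl11 Sesn1 was again the sole call on the elemental diet, and 0 of 8 were called in the sort. Of the mitochondrial ribosomal protein genes, which serve another ribosome, 1 of 77 was called higher on the elemental diet (Mrpl2, 0.45 ± 0.14, adjusted p = 0.038) and 0 lower, with 63 of 77 above 0 (median 0.10). In CD44+ cells 0 of 75 were called, with 54 above 0 (median 0.35). Of 7 ribosomal protein pseudogenes tested 0 were called in either comparison. The 9 host genes of small nucleolar RNAs had no entry under the names used and were not analysed here.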

How the data were processed

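Sorted Peyer's patch T cells of 4 groups and 26 libraries were analysed from per-library tables of 25814 genes. The deposited tables hold whole-number read counts per gene, per the file headers as total reads (including reads that matched several places), unique reads and intron reads. Per the submitters' processing notes the build is GRCm38; for the aligner and the counting program the sources used here give nothing. Genes with a deposited exon length of 0 (3759) were left out.

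Total exon read counts were tested with edgeR 4.0.16 (R 4.3.3; TMM factors, filterByExpr by group, robust quasi-likelihood test, Benjamini-Hochberg adjustment over all genes tested, threshold 0.05), elemental over conventional and CD44+ over CD44- in separate fits. CPM uses the TMM-scaled library size. Each SE was worked out from the log2 fold change and its F statistic. The tests were checked on simulated data. The changes planted there were larger than those of nearly all members, and each gene was drawn independently. The check therefore does not cover small changes or members that move together. DESeq2 1.42.0, limma 3.58.1 (voom), other scalings, filters and read columns, an intron share covariate, a replicate block and leaving out libraries were alternatives. Coding lengths are of GENCODE transcripts. Between-library depth is given with the results. PCR reads without molecular identifiers are not independent molecules.

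The members and the lists were chosen with earlier results of these data known. Members named are the largest called changes, the 4 highest and 4 lowest per kilobase, and a fixed set of well-known members. Others were named after their values were seen.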

Additional observations from a re-analysis of the deposited data

Results flagged for a closer look

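Each member named was looked at within each group for 1 library far from the rest (gap to the nearest library over the group's range, Dixon's 95% limit). Of 100 such groups 7 stood out, where chance gives about 5%. Rpl27 was at 178 CPM in conventional replicate 6, against 81.3 to 114 CPM in the other conventional libraries. In CD44+ replicate 2 Rpl22 was at 421 CPM (others 567.7 to 621), Rpl38 at 1047 CPM (others 1341 to 1552) and Rpl5 at 2138 CPM (others 987 to 1440). Rplp2 was at 700.2 CPM in CD44+ replicate 8 (others 179 to 303), and Rps6 at 5392 CPM in CD44+ replicate 6 (others 3748 to 4388). Rps27 was at 10509 CPM in CD44- replicate 6, against 2063 to 5599 CPM in the other CD44- libraries.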

How the results depend on the processing

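For the diets 0 members were called in either direction, except as follows. Members called higher numbered 51 with limma-voom, 8 with plain library size, 6 when scaled to the summed reads of the members (and 3 lower), 2 with the replicate block (9.35% of all genes tested) and 36 with conventional replicate 6 and elemental replicate 1 both left out. The summed scaling put the members' median at -0.0085, Rplp0 at -0.11 and Rpsa at -0.17. All genes called numbered 4095 with limma-voom, 335 with the intron share and 3379 without that pair of libraries, against 2081. With the intron share the members' median log2 fold change was 0.42, against 0.25 in the main fit, and their lowest adjusted p was 0.17 (edgeR). For the sort, members called lower numbered 5 with plain library size and 4 each with TMM without the members, with the summed scaling and with total gene reads, against 2. Of all genes tested 0.551%, 0.551%, 0.396% and 0.474% were called lower under these settings in that order. All genes called numbered 401 with DESeq2, 101 with total gene reads, 30 with the intron share and 37 with the replicate block, against 64. The cause of these shifts was not tested.

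Leaving out 1 library at a time gave for the diets 0 to 59 members called higher, 0 lower, a median of 0.17 to 0.35, 1299 to 3865 genes called and a difference in read share of 2.57 to 4.07 percentage points. The 59 came without conventional replicate 6. For the sort it gave 0 members higher, 2 to 5 lower (5 without CD44- replicate 2, 4 without CD44- replicate 8, where 0.651% of all genes tested were), a median of -0.12 to 0.08, 36 to 87 genes called and a share difference of -2.65 to -0.08 points. Named members had the other sign in 16 of 529 alternative values for the diets. The summed scaling, which centres the members near 0 by construction, gave 15 of these, and there Rplp0 and Rpsa were also called. For the sort named members had the other sign in 44 of 600, over 9 members, with 0 of these called.

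The labels do not say whether same-numbered libraries were paired, though both sorts use the same replicate numbers, with 3 missing from each. The correlations below rest on few libraries and cannot settle this. Deviations of same-numbered libraries correlated at -0.22 to 0.38 for the diets (3 of 6 pairs over 0.1, 2 libraries closest to their own number) and at -0.05 to 0.12 for the sort (1 of 7, 1 closest). With the replicate block 2 members were called for the diets, Rps9 and Rps14, and 2 for the sort, with 2033 and 37 genes called in all.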
